A study of Homo sapiens with 6 samples.

Results

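Keratins are the proteins that build the intermediate filaments of epithelial cells. A filament is assembled from equal amounts of a type I (acidic) and a type II (basic) keratin, so the genes are usually expressed as pairs. Simple epithelia use KRT8 with KRT18, the basal layer of stratified epithelia such as the esophagus uses KRT5 with KRT14 or KRT15, and the layers above it in the normal esophagus use KRT4 with KRT13. KRT6A, KRT16 and KRT17 are best known from wounded or hyperproliferative skin, and a large subset of the family is otherwise found in the hair follicle.

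The keratin gene family was taken as every gene symbol made of KRT, a number and at most a letter A, B or C, which left out the keratin-associated proteins and the pseudogenes. This rule found 55 genes among the 58884 in the table, 29 of type I and 26 of type II. They were measured by RNA-seq in KYSE70, a human cell line established from an esophageal squamous cell carcinoma (ESCC), with mutant NFE2L2 (the gene of the transcription factor NRF2), and in NRF2null-KYSE70, derived from it by CRISPR-Cas9 cutting in exon 2 of NFE2L2 and single-cell cloning. Both lines were untreated, were grown in the same serum-containing medium and had 3 libraries each. NRF2null-KYSE70 is 1 clone, in which the study still detected shorter NFE2L2 transcripts, so each comparison below is between that clone and its parental line.

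Values are normalized counts, the authors' read counts scaled to a common library depth. Libraries held between 52072801 and 63975313 reads on genes, and no pair of libraries within a line agreed to within sampling noise. The targeted gene, NFE2L2, had 9839, 9906 and 10040 normalized counts in KYSE70 and 5803, 6041 and 6434 in NRF2null-KYSE70, so its RNA was lower in the edited clone but still abundant. All 5 epithelial and all 6 squamous markers examined passed the filter on low values described below. CDH3, with 18.7, 2.72 and 2.11 normalized counts, and ESRP1, with 21.3, 21.8 and 11.6, had few reads in KYSE70. The summed epithelial markers ranged from 25609 to 26941 in KYSE70 and from 33051 to 35314 in NRF2null-KYSE70. The summed squamous markers ranged from 100332 to 104384 in KYSE70 and from 70284 to 75241 in NRF2null-KYSE70. Of the squamous markers only SOX2 was higher in the clone, with means of 18091 in KYSE70 and 20068 in NRF2null-KYSE70, and TP63 had means of 26341 and 13892. Markers of other cell types were partly absent, but not all were low. Of 7 fibroblast markers COL1A2 and DCN were at 0 in every library (summed list 3851 to 3973 in KYSE70, 3039 to 3452 in NRF2null-KYSE70). THY1 had means of 2429 in KYSE70 and 2702 in NRF2null-KYSE70, COL1A1 of 1232 and 554, and COL3A1 of 257 and 8.46. LUM had means of 1.94 and 2.57, and PDGFRB of 0 and 14.3. The summed immune list ranged from 0 to 10.5 in KYSE70 and from 40.2 to 47.9 in NRF2null-KYSE70, nearly all of it PTPRC in the clone. The summed endothelial list, which was nearly all VWF, ranged from 133 to 149 against 275 to 450, and the smooth muscle list from 226 to 271 against 222 to 267. The part of these markers in the keratin differences was not tested, and in bulk RNA fewer cells expressing a gene cannot be told apart from less RNA per cell.

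The first question was which keratins these cells expressed. No read was found for 13 of the 55 members in any library, and a count of 0 allows up to 3 reads per library. Another 18 members had reads but a mean under 10 normalized counts over the 6 libraries, and were not tested. The remaining 24 members, 10 of type I and 14 of type II, passed this filter. KRT32, KRT3, KRT19 and KRT83 passed it through 1 line only, the other line having a mean under 10, so their selection favoured a difference.

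Differences were tested with limma over all 15994 genes that passed the filter. A gene was counted as changed at a Benjamini-Hochberg adjusted p under 0.05 with a log2 fold change of at least 1 in either direction. Fold changes give NRF2null-KYSE70 relative to KYSE70 as a difference of mean log2 values after 1 was added to each normalized count, so for genes with few or uneven reads they can differ from the ratio of the means. Of the 24 tested keratins, 12 passed both thresholds, against 14.7% of all tested genes. KRT32, KRT3, KRT19 and KRT83, whose selection favoured a difference, were all among these 12. KRT81, KRT75, KRT7, KRT4, KRT19, KRT83, KRT86, KRT14 and KRT23 rose in NRF2null-KYSE70, where 7.23% of all tested genes rose, and KRT3, KRT32 and KRT13 fell, where 7.43% of all tested genes fell. At an adjusted p under 0.05 without the fold threshold, 18 keratins differed, against 57.6% of all tested genes, of which 12 were higher and 6 lower, against 29.3% and 28.3%. For 21 of the 24 there was no overlap between libraries of different lines, against 63.4% of all tested genes. The median log2 fold change was 0.68 over the 24 keratins and -0.01 over all tested genes.

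The changed keratins were mostly genes of low abundance. Of the 12, KRT13 had a mean over 1000 normalized counts, and the other 11 had means under 300. None of the other 8 tested keratins with a mean of at least 500 passed the fold threshold. Among these 8, KRT5, KRT8 and KRT15 were lower and KRT6A, KRT17 and KRT80 were higher at an adjusted p under 0.05, whereas KRT18 and KRT10 did not pass the test. The share of all tested genes past both thresholds was not computed for these ranges of abundance. It was 11.6% of 13004 genes with a filter at a mean of 50, against 14.7% with the main filter at a mean of 10.

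**Figure D1:**
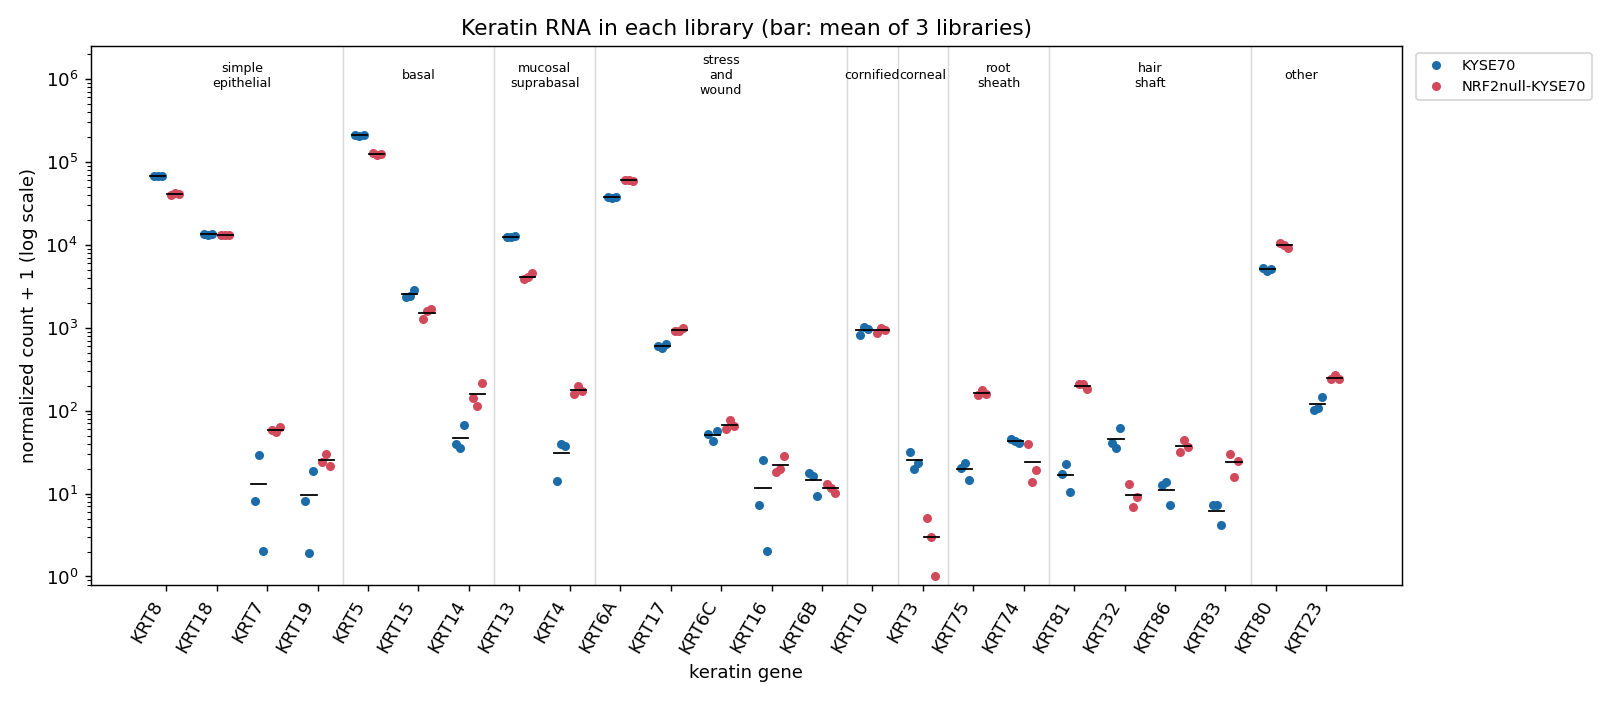
Normalized count plus 1 (vertical axis, log scale) of the 24 tested keratins in each library, grouped by the tissue in which each keratin is best known; points are libraries of KYSE70 (blue) and NRF2null-KYSE70 (red), and bars are means of 3 libraries. The libraries of each line lie close together for KRT5, KRT8, KRT6A and KRT18, whereas 11 of the 12 keratins past both thresholds have means under 300.

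The simple epithelial keratins moved apart from each other. KRT8 (ENSG00000170421, chromosome 12, 52897187 to 52949954, hg38), the type II keratin of simple epithelia, had 67702, 66698 and 68238 normalized counts in KYSE70 and 40053, 41578 and 41347 in NRF2null-KYSE70. Every library of the clone was below every parental library, at 60.7% of the parental mean (log2 fold change -0.72, SE 0.044, limma adjusted p = 2.55e-08). Its usual partner KRT18 (ENSG00000111057, 52948871 to 52952906 on the same chromosome), the 1 type I gene that lies in the type II cluster, had 13456, 13296 and 13569 against 12958, 13258 and 12959. These values were nearly level, although the groups did not overlap (log2 fold change -0.04, 95% interval -0.13 to 0.05, limma adjusted p = 0.418). KRT8 and KRT18 share 525 exon bases on opposite strands in the annotation, and counting by strand was not stated, so some reads could not be told apart.

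Both of these genes lie on 12q, an arm whose 487 measured protein-coding genes had a median log2 fold change of -0.38. Relative to that median, KRT8 stood at -0.34 (limma adjusted p = 3.14e-05) and KRT18 at 0.34 (limma adjusted p = 2.07e-05), so the direction of KRT18 turned while KRT8 stayed lower.

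KRT7 and KRT19, which mark glandular and ductal epithelia, were scarce and uneven in the parental line. KRT7 (ENSG00000135480) had 7.11, 28.1 and 1.05 normalized counts in KYSE70 and 57.8, 53.9 and 62.8 in NRF2null-KYSE70. The clone's libraries were all above the highest parental library (log2 fold change 2.91, SE 0.73, limma adjusted p = 0.00427). The size of this rise depended on single libraries, at 3.85 without KYSE70 library 2 and 1.94 without KYSE70 library 3. KRT19 (ENSG00000171345) had 7.11, 0.907 and 17.9 in KYSE70 and 23.3, 29.4 and 20.5 in NRF2null-KYSE70, without overlap but with a narrow gap (log2 fold change 1.92, SE 0.73, limma adjusted p = 0.0381). Its call was lost under 9 of 17 alternatives, among them DESeq2 (adjusted p = 0.054), edgeR (adjusted p = 0.0606) and the fit without KYSE70 library 2 (1.02, limma adjusted p = 0.125), while without KYSE70 library 3 the log2 fold change was 2.68. KRT20, the intestinal member, had at most 6 reads in a library.

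In the basal group, the abundant keratins were lower and the scarce one was higher in the clone. KRT5 (ENSG00000186081, chromosome 12, 52514575 to 52520530), the type II keratin of basal cells, had the highest keratin level per exon length in both lines. It had 213140, 207890 and 208720 normalized counts in KYSE70 and 127862, 121672 and 124387 in NRF2null-KYSE70. The groups were far apart relative to their spread, and the clone retained 59.4% of the parental mean (log2 fold change -0.75, SE 0.050, limma adjusted p = 5.41e-08). Relative to the 12q median its difference was -0.37 (limma adjusted p = 4.54e-05). KRT15 (ENSG00000171346), a type I keratin of basal cells, had 2343, 2435 and 2810 against 1259, 1592 and 1674, again without overlap (log2 fold change -0.75, SE 0.10, limma adjusted p = 3.68e-05). KRT14 (ENSG00000186847), the other type I basal keratin, had 38.2, 34.5 and 66.4 against 140, 112 and 217. All libraries of the clone were above those of the parental line (log2 fold change 1.74, SE 0.30, limma adjusted p = 0.000316), yet per exon length KRT14 stayed far below its type II partner in both lines. Of the 75-base stretches of KRT14 transcripts, 10.2% also occurred in other genes, mainly KRT16 and its pseudogenes, so its reads could be split between copies. KRT14 and KRT16 summed gave 57.0 ± 11.6 normalized counts in the parental line and 177 ± 59.5 in the clone (SD, n = 3 each).

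KRT4 and KRT13, the pair of the upper layers of the normal esophagus, changed in opposite directions. KRT13 (ENSG00000171401, chromosome 17, 41500981 to 41505705) had 12304, 12301 and 12865 normalized counts in KYSE70 and 3818, 4104 and 4506 in NRF2null-KYSE70. It fell to 33.2% of the parental mean, with no overlap (log2 fold change -1.59, SE 0.060, limma adjusted p = 3.08e-10), and was called under all 18 alternatives. KRT4 (ENSG00000170477, chromosome 12, 52806549 to 52814116) had 13.3, 39.0 and 36.9 against 158, 195 and 170, a rise of 2.65 on the log2 scale (SE 0.35, limma adjusted p = 3.3e-05). KRT4 was lowest in KYSE70 library 1, and without that library the rise was 2.17. KRT78, another suprabasal keratin, had between 0 and 11 reads in a library and did not separate the lines, and KRT76 had 1 read in all.

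Among the stress and wound keratins, the abundant members were higher in the clone without reaching the fold threshold. KRT6A (ENSG00000205420, chromosome 12, 52487176 to 52493257), a type II keratin of activated keratinocytes, had 37458, 36876 and 37735 normalized counts in KYSE70 and 61198, 60307 and 59466 in NRF2null-KYSE70. The libraries were tight within each line and did not overlap (log2 fold change 0.69, SE 0.043, limma adjusted p = 3.15e-08). Relative to the 12q median its difference was 1.07 (limma adjusted p = 7.7e-10). KRT17 (ENSG00000128422), a type I member, had 601, 564 and 630 against 921, 916 and 999, also without overlap (log2 fold change 0.66, SE 0.084, limma adjusted p = 2.27e-05). KRT6C and KRT6B, near-copies of KRT6A, did not pass the test. KRT6C had 50.7, 41.7 and 55.9 against 59.8, 75.5 and 65.1 (log2 fold change 0.43, 95% interval -0.12 to 0.98, limma adjusted p = 0.163), and KRT6B had 16.9, 15.4 and 8.44 against 12.2, 10.8 and 9.13 (-0.27, interval -1.36 to 0.82, limma adjusted p = 0.668). Relative to the 12q median, KRT6C stood at 0.81 (limma adjusted p = 0.0118) and KRT6B at 0.11 (limma adjusted p = 0.87). Between 26.2% (KRT6A) and 42.5% (KRT6C) of the 75-base stretches of these genes were shared, so the counts of KRT6B and KRT6C are uncertain. Summed over the 3 genes the counts were 37419 ± 443 and 60401 ± 865 (SD, n = 3 per line). KRT16, which usually accompanies KRT6A, was scarce, with 6.23, 24.5 and 1.05 against 17.2, 18.6 and 27.4. These groups overlapped (log2 fold change 1.58, 95% interval -0.09 to 3.26, limma adjusted p = 0.0978), and the value rose to 2.49 (limma adjusted p = 0.0128) without KYSE70 library 2 and dropped to 0.67 without KYSE70 library 3.

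Keratins of cornified epidermis were nearly silent except for KRT10. KRT10 (ENSG00000186395), the type I keratin of suprabasal epidermis, had 815, 1010 and 966 normalized counts in KYSE70 and 853, 994 and 948 in NRF2null-KYSE70. The groups overlapped throughout (log2 fold change 0.01, 95% interval -0.20 to 0.21, limma adjusted p = 0.966), and the sign turned with TMM scaling (-0.01), total scaling (-0.07) and subtraction of the 17q median (-0.03). Its type II partner KRT1 had 1 read over the 6 libraries, so no KRT1 to KRT10 ratio was formed. KRT10 shares 61 of its 2163 exon bases with the antisense gene KRT10-AS1, and reads in those bases could not be assigned by strand. KRT13, KRT7 and KRT23 share 476, 282 and 186 exon bases with antisense genes, whose mean normalized counts were at most 7.04 in either line. KRT9, KRT77 and KRT2 had at most 5 reads in any library.

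The corneal keratin KRT3 (ENSG00000186442, chromosome 12, 52789685 to 52796117) had 31.1, 19.05 and 22.1 normalized counts in KYSE70 and 4.06, 1.96 and 0 in NRF2null-KYSE70. All parental libraries were above those of the clone (log2 fold change -3.32, SE 0.72, limma adjusted p = 0.00156). Because the clone held so few reads, the fitted size depended on the pseudocount, at -4.64 with 0.1 and -2.08 with 5, and it was -2.67 without NRF2null-KYSE70 library 3. Its partner KRT12 had no read.

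KRT81 and KRT75, both keratins of the hair follicle, had the highest log2 fold changes of the 24 tested members. KRT81 (ENSG00000205426, chromosome 12, 52285913 to 52291534), a type II hair shaft keratin, had 16.01, 21.8 and 9.49 normalized counts in KYSE70 and 209, 206 and 184 in NRF2null-KYSE70. Its mean was 12.7 times the parental mean (log2 fold change 3.65, SE 0.30, limma adjusted p = 4.72e-07). Neighbouring genes of the same class were also higher in the clone. KRT86 (ENSG00000170442) had 11.6, 12.7 and 6.33 against 30.4, 43.1 and 35.4 (log2 fold change 1.77, SE 0.42, limma adjusted p = 0.00305). KRT83 (ENSG00000170523) had 6.23, 6.35 and 3.16 against 29.4, 14.7 and 23.97 (log2 fold change 1.92, SE 0.54, limma adjusted p = 0.00833). In each of these 3 genes the lines did not overlap and KYSE70 library 3 was the lowest. KRT81 and KRT86 shared 36.6% and 32.7% of their 75-base stretches with other genes, mainly each other, so the split between them is uncertain. KRT86 also shares 32 and 76 exon bases with the antisense genes ENSG00000257829 (means of 36.9 in KYSE70 and 38.4 in NRF2null-KYSE70) and ENSG00000257830 (0 and 9.21), and reads in those bases could not be assigned by strand. Summed over KRT81, KRT83 and KRT86, the counts were 33.8, 40.8 and 18.98 in KYSE70 and 269, 264 and 243 in NRF2null-KYSE70.

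A type I hair shaft keratin moved the other way. KRT32 (ENSG00000108759), the only type I member of this group that was tested, had 40.0, 34.5 and 60.1 normalized counts in KYSE70 and 12.2, 5.88 and 7.99 in NRF2null-KYSE70. It fell without overlap (log2 fold change -2.26, SE 0.43, limma adjusted p = 0.000621). KRT85, a type II member under the filter, had 6, 16 and 5 reads in KYSE70 and 6, 0 and 0 in NRF2null-KYSE70. KRT34 had 0, 1 and 6 against 8, 4 and 0 reads, and the others of the group had at most 4 reads in any library. Of the 17 hair shaft members 13 were not tested. Of the 4 tested, 3 rose and 1 fell, where 7.23% of all tested genes rose and 7.43% fell. KRT83 and KRT32 had passed the filter through 1 line only, and KRT81 and KRT86 share sequence, so these are not separate results of equal weight.

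The companion layer keratin KRT75 (ENSG00000170454, chromosome 12, 52424070 to 52434371), a type II keratin of the hair follicle that shares no 75-base stretch with another gene, had 19.6, 22.7 and 13.7 normalized counts in KYSE70 and 153, 177 and 160 in NRF2null-KYSE70. The libraries of each line lay close together and far from those of the other line (log2 fold change 3.09, SE 0.27, limma adjusted p = 6.9e-07). KRT74, a keratin of the inner root sheath, had 44.5, 41.7 and 40.1 against 38.5, 12.7 and 18.3. Here NRF2null-KYSE70 library 1 lay close to the parental libraries, and the difference did not pass the test (log2 fold change -0.98, 95% interval -1.86 to -0.09, limma adjusted p = 0.0561). Without that library it passed (-1.40, limma adjusted p = 0.00765). KRT72 and KRT71 had at most 6 reads in a library, and the other 5 members of this group had none.

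Outside these groups, KRT80 (ENSG00000167767, chromosome 12, 52168996 to 52192014), a type II keratin found broadly in epithelia, had 5265, 4864 and 5134 normalized counts in KYSE70 and 10426, 10037 and 9223 in NRF2null-KYSE70. Its mean was 1.94 times the parental mean, just short of the fold threshold (log2 fold change 0.96, SE 0.056, limma adjusted p = 1.72e-08). It passed that threshold without NRF2null-KYSE70 library 3 (1.01) and relative to the 12q median (1.34). KRT23 (ENSG00000108244), a divergent type I keratin, had 101, 107 and 147 against 239, 268 and 237. It rose without overlap (log2 fold change 1.08, SE 0.17, limma adjusted p = 0.000172), just inside the threshold, and was under it without KYSE70 library 1 (0.98). KRT79 had at most 4 reads in a library, and KRT24 and KRT222 had none.

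**Figure D2:**
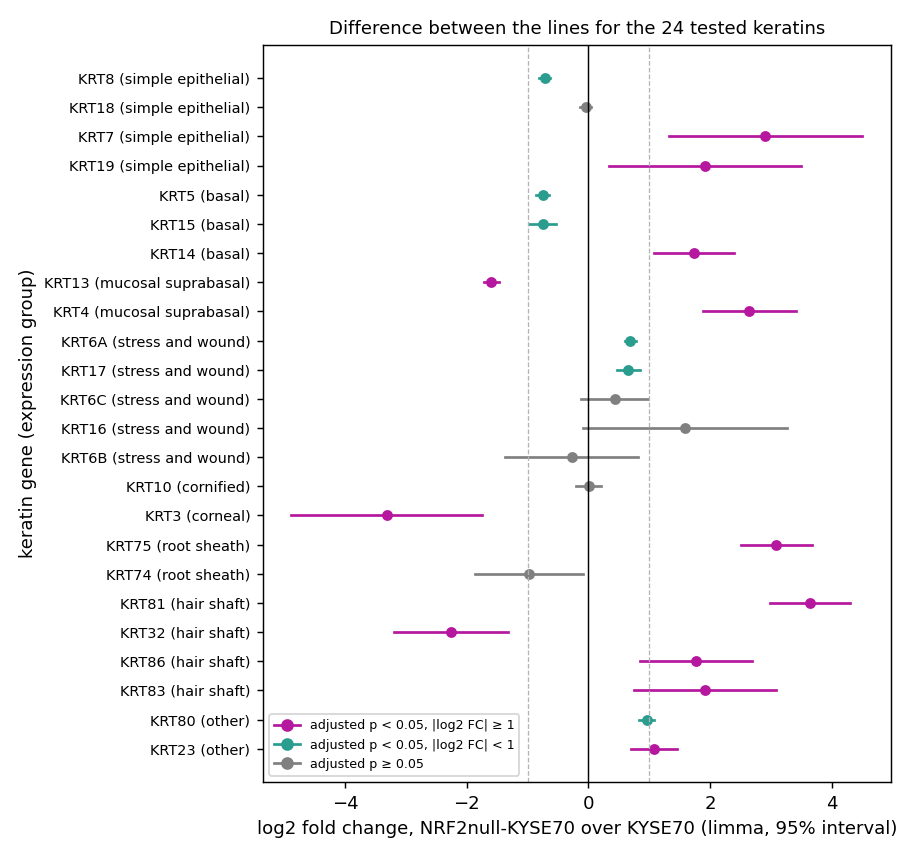
Log2 fold change of NRF2null-KYSE70 over KYSE70 (horizontal axis) with its limma 95% interval for the 24 tested keratins, ordered by expression group; dashed lines mark a log2 fold change of -1 and 1. Purple points passed both thresholds (9 higher, 3 lower), green points passed the adjusted p alone, and grey points did not pass the test.

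The make-up of the keratin RNA was compared next, because filaments need both types. Keratin reads made up 0.621%, 0.612% and 0.617% of all reads in KYSE70 and 0.432%, 0.428% and 0.432% in NRF2null-KYSE70. The lines did not overlap (exact permutation p = 0.1, the smallest that 3 against 3 libraries allow). Levels of different genes were then set on a common scale by dividing counts by the kilobases of annotated exons. On this scale KRT5 took 60.1% ± 0.456 of the parental keratin counts and 45.6% ± 0.675 of those of the clone, and KRT6A took 15.1% ± 0.104 and 31.2% ± 0.274 (SD, n = 3 libraries each). The share of KRT5 was 14.6 percentage points lower and that of KRT6A 16.03 points higher in NRF2null-KYSE70. KRT8 had 11.6% and 9.004%, KRT18 5.19% and 6.43%, KRT13 5.08% and 2.15%, and KRT80 1.38% and 3.43%. The lines did not overlap for any of these 6 shares (exact permutation p = 0.1 for each). Of all tested keratins, only KRT74, KRT6B and KRT16 had shares that overlapped. Shares are parts of 1 total and depend on each other, and that of KRT18 was higher in the clone although its counts were nearly level. KRT5, KRT6A, KRT8, KRT13 and KRT18 together held between 94.2% and 97.2% of the keratin counts per exon kilobase in every library.

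The length used mattered for the order of the abundant genes. Per kilobase of coding sequence, KRT5 took 56.2% and 45.01%, KRT8 20.9% and 17.1%, and KRT6A 10.5% and 22.8% of the keratin counts in KYSE70 and NRF2null-KYSE70. On both scales KRT5 was first in both lines and KRT6A second in NRF2null-KYSE70, whereas second place in KYSE70 went to KRT6A per exon kilobase and to KRT8 per coding kilobase.

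**Figure D3:**
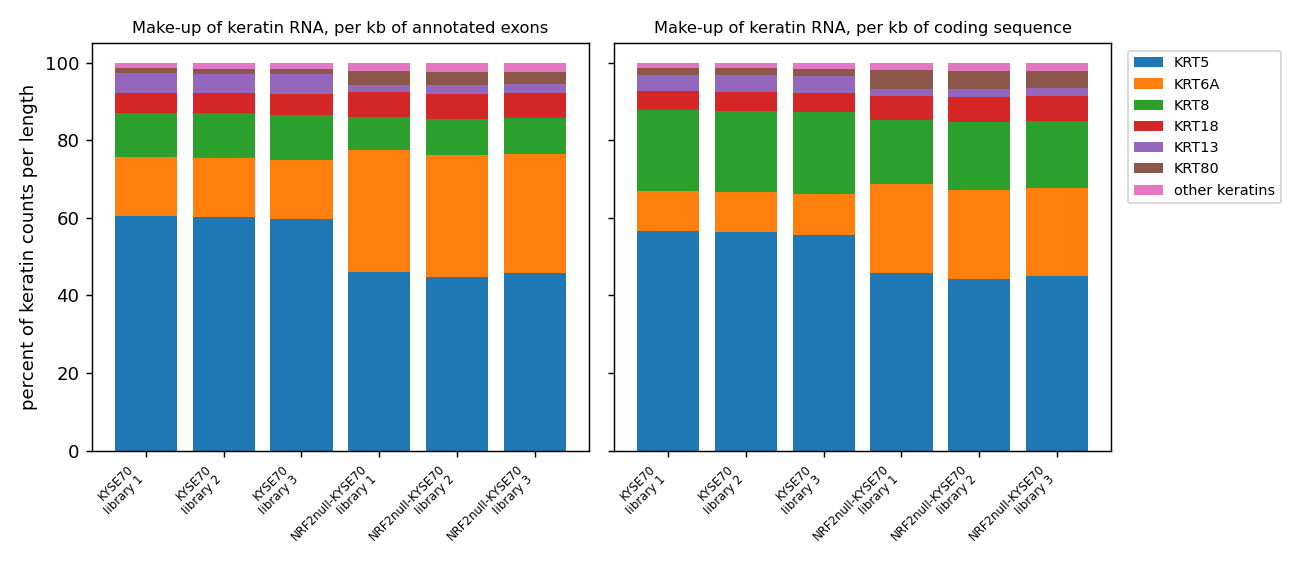
Share of keratin counts per length (vertical axis, percent) taken by the 6 most abundant keratins and by all others in each library, per kilobase of annotated exons (left) and of coding sequence (right). The KRT5 segment is smaller and the KRT6A segment larger in all 3 NRF2null-KYSE70 libraries on both scales.

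Type I keratins were the minority. Per exon kilobase they made up 11.3%, 11.6% and 11.9% of keratin counts in KYSE70 and 9.88%, 10.6% and 10.7% in NRF2null-KYSE70, without overlap (exact permutation p = 0.1). The difference was -1.26 percentage points on this scale and -0.54 per coding kilobase. Without a length correction it was -0.46 (exact permutation p = 0.2).

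Partner ratios were formed for 8 type II and type I pairs known from tissues, as log2 of the counts per exon kilobase of the type II gene over those of its partner. A value could be had for 7 pairs, and for 4 of these the lines did not overlap, each at the smallest exact permutation p of 0.1 (adjusted p = 0.175 over the 7 pairs), so none passed the adjusted threshold, which this design cannot reach. The ratio of KRT4 to KRT13 differed most. It was -9.83, -8.28 and -8.43 in KYSE70 and -4.57, -4.38 and -4.71 in NRF2null-KYSE70, so KRT4 remained the scarcer partner in both. The ratio of KRT5 to KRT14 was 11.57, 11.68 and 10.74 against 8.96, 9.21 and 8.29. That of KRT8 to KRT18 was 1.17, 1.16 and 1.17 against 0.46, 0.48 and 0.51, the tightest of the pairs. The level of a ratio, unlike its difference between the lines, depends on the length used. Per coding kilobase KRT8 had mean counts of 44061 in KYSE70 and 26740 in NRF2null-KYSE70, and KRT18 of 10419 and 10123. On that scale KRT8 exceeded KRT18 by a larger factor in both lines. In the other pair without overlap, KRT6B to KRT17, the mean went from -5.14 ± 0.61 to -6.09 ± 0.27 (SD, n = 3 per line), with the KRT6B reads uncertain as above.

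The ratio of KRT5 to KRT15 was 6.91 ± 0.15 in the parental line and 6.91 ± 0.25 in the clone (SD, n = 3 each; exact permutation p = 1), as both genes were lower by a log2 fold change of 0.75. The lines overlapped for KRT6A to KRT16 (12.5 ± 2.29 against 11.3 ± 0.38) and for KRT7 to KRT19 (-0.49 ± 4.53 against 0.49 ± 0.37). In these 2 pairs KRT16, KRT7 and KRT19 had few reads in the parental libraries, and the parental libraries spread widely.

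**Figure D4:**
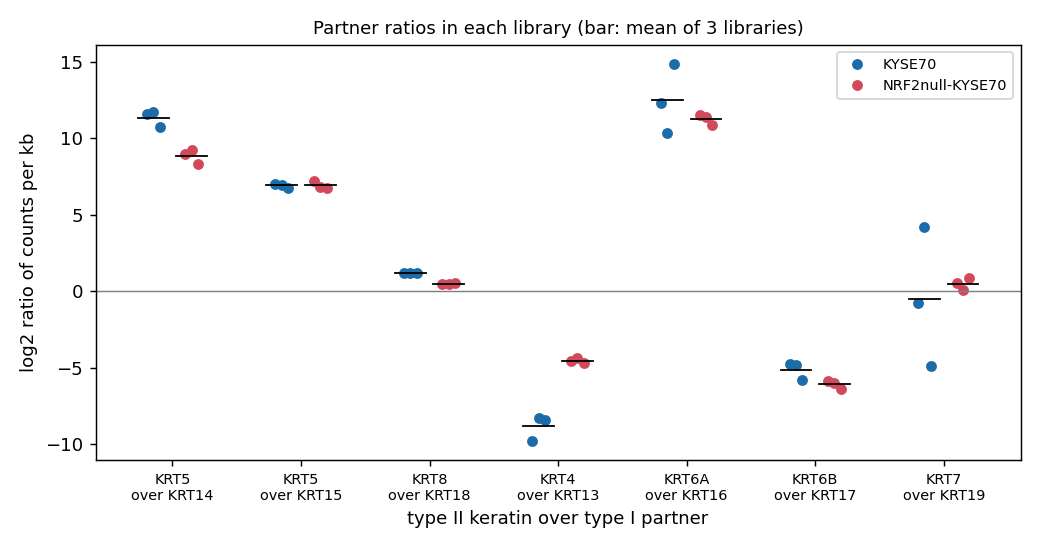
Log2 ratio of counts per exon kilobase of the type II keratin over its type I partner (vertical axis) for 7 pairs; points are libraries of KYSE70 (blue) and NRF2null-KYSE70 (red), and bars are means. The lines are separate for KRT5 over KRT14, KRT8 over KRT18, KRT4 over KRT13 and KRT6B over KRT17, and level for KRT5 over KRT15.

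Keratin genes lie in 2 clusters, so the differences were also laid out along the chromosomes. The type II cluster on chromosome 12 (52168996 to 52952906, KRT80 to KRT18) held 27 members, of which 15 were tested, 6 rose and 1 fell, where 7.23% of all tested genes rose and 7.43% fell. The 33 flanking protein-coding genes within 1 Mb had a median log2 fold change of -0.42, close to that of the arm. From KRT80 to KRT6A, a stretch of 318 kb chosen after its values were seen, 9 members were tested, 7 were higher at an adjusted p under 0.05 (29.3% of all tested genes were), none was lower (28.3% of all tested genes were) and KRT6B and KRT6C did not pass. From KRT5 to KRT18, 6 were tested, of which KRT4 was higher, KRT5, KRT3 and KRT8 were lower, and KRT74 and KRT18 did not pass. The type I cluster on chromosome 17 (40654665 to 41624842) held 28 members, of which 9 were tested, 3 rose and 2 fell, beside the same 7.23% and 7.43% of all tested genes. There the median log2 fold change was 0.03 over 505 genes of 17q and -0.03 over 53 flanking genes, and members higher and lower at an adjusted p under 0.05 were interspersed. In order along the chromosome, KRT23 was higher, KRT32, KRT13 and KRT15 were lower, and KRT19, KRT14 and KRT17 were higher.

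**Figure D5:**
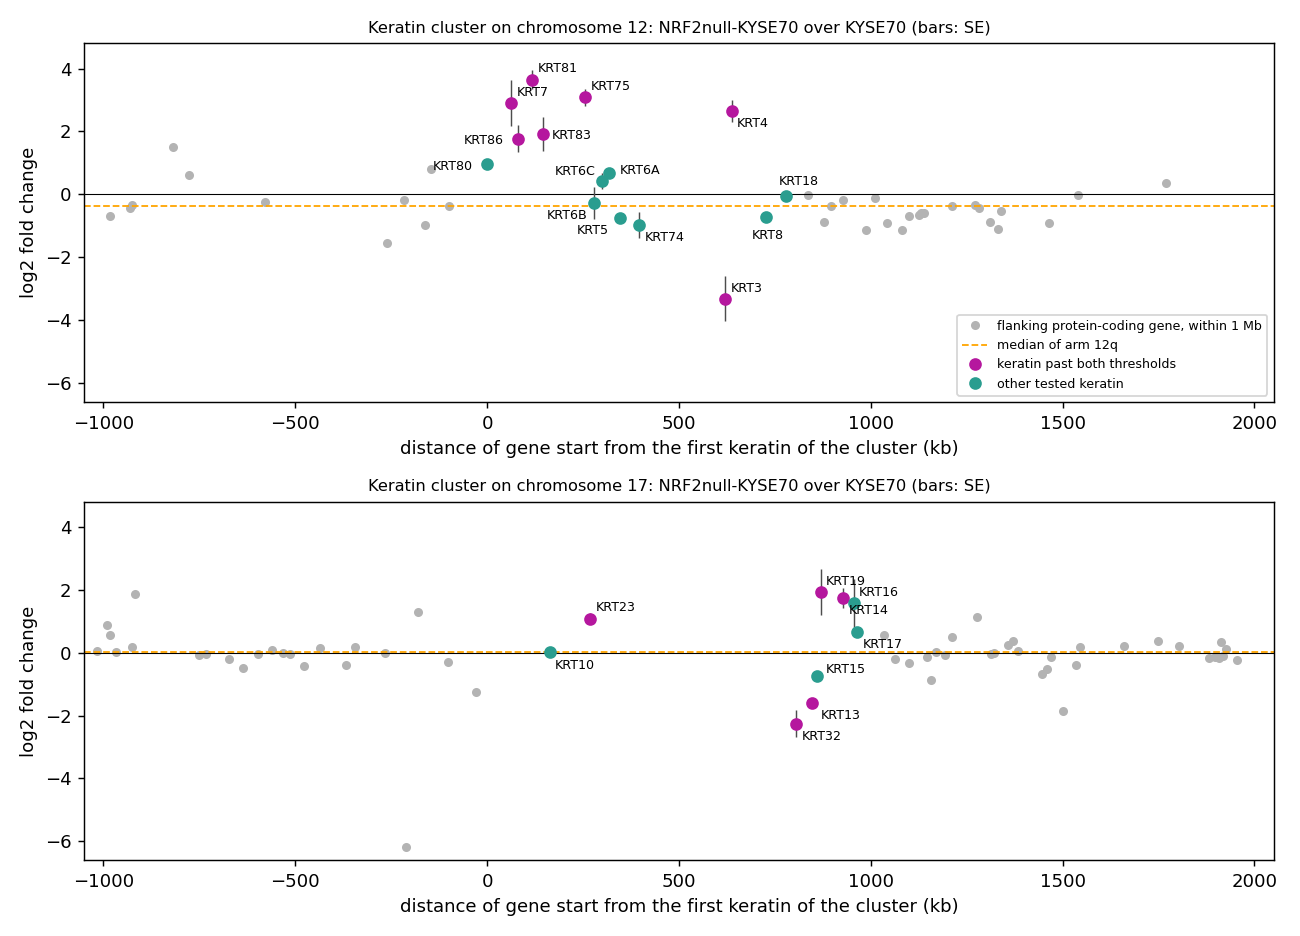
Log2 fold change (vertical axis; bars are SE) of tested keratins and of flanking protein-coding genes against the distance of each gene start from the first keratin of its cluster (horizontal axis, kb) on chromosomes 12 and 17; the dashed line is the arm median (-0.38 on 12q, 0.03 on 17q). Higher and lower keratins lie side by side, with KRT3 at -3.32 next to KRT4 at 2.65. The size for KRT3 rests on few reads and depended on the pseudocount.

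Neighbouring keratins thus differed in direction over short distances. The starts of KRT3, which had few reads in the clone, and KRT4 are 16.9 kb apart, and those of KRT6A and KRT5 are 27.4 kb apart. The 250 bases upstream of the start are shown for these contrasts where the RefSeq promoter table (GRCh38.p14) held the gene. That was so for KRT3, KRT4 and KRT5, with KRT75 added as the next higher member beside KRT5 (90.5 kb). All are on the minus strand of chromosome 12 and are written 5′ to 3′ toward the start of the gene, KRT3 at chr12:52796118-52796367, KRT4 at chr12:52814117-52814366, KRT5 at chr12:52520395-52520644 and KRT75 at chr12:52434372-52434621. The RefSeq start of KRT5 lies inside the GENCODE span given above, so part of its window is within that span. Capitals mark a match to any of the 3 motifs given after the sequences.
KRT3: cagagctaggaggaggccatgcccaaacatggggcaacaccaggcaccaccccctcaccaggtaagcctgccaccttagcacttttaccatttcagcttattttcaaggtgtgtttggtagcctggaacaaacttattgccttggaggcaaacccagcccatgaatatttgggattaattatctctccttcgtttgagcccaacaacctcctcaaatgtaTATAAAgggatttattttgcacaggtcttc
KRT4: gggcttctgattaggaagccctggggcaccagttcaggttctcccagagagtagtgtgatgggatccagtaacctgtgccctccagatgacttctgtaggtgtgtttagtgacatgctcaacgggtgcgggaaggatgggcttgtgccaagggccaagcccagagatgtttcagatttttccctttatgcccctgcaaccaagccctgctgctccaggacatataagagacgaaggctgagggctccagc
KRT5: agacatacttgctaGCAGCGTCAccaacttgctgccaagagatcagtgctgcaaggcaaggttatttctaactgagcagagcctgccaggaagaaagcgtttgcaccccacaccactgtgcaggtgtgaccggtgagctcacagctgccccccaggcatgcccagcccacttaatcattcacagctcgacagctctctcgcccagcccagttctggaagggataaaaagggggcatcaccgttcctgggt
KRT75: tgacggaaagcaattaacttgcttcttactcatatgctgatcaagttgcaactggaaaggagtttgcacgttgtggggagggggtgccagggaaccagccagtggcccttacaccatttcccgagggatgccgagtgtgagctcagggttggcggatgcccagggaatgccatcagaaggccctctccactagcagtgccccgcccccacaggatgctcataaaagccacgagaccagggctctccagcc

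The motifs searched on both strands were the TATA box letters TATAAA, the core of the antioxidant response element bound by NRF2 with small MAF proteins, TGACNNNGC, and the AP-1 site TGANTCA, which can overlap that core. TATAAA was present upstream of KRT3 and KRT10 among the 8 tested keratins in the table, of 20 among all 34 keratins in it and of 10.7% of its 35116 promoters. TGACNNNGC was present, on the opposite strand, upstream of KRT5, of 7 of the 34 keratins and of 10.9% of all promoters. TGANTCA was present in none of the 34 keratin windows and in 6.57% of all promoters. A match or its absence in this window is a description of the letters only.

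Other genes of the filament system were counted from lists. Of 15 other intermediate filament genes, 10 were tested. NEFL and NEFM, the light and medium neurofilament chains, and PRPH, the peripheral neuron filament protein, fell, and VIM, the filament protein of mesenchymal cells, rose, where 7.43% of all tested genes fell and 7.23% rose. NEFL had 96388, 92243 and 92422 normalized counts in KYSE70 and 10560, 9189 and 10863 in NRF2null-KYSE70 (log2 fold change -3.20, limma adjusted p = 6.91e-13), with no overlap between the lines. VIM had 111, 129 and 91.7 against 279, 226 and 258 (1.20, limma adjusted p = 6.62e-05). NEFM had a log2 fold change of -2.20 and PRPH of -1.18.

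Of 22 genes for proteins that link or bind keratin filaments, 17 were tested, 3 rose and none fell (7.23% and 7.43% of all tested genes). PLEC, the linker of filaments to hemidesmosomes, had a log2 fold change of 1.36, MACF1, a related cytoskeletal linker, of 1.33, and FLG, the filament-aggregating protein of the epidermis, of 2.35 (limma adjusted p = 3.62e-08). FLG had 4872, 3755 and 3928 normalized counts in KYSE70 and 28698, 18179 and 18086 in NRF2null-KYSE70. NRF2null-KYSE70 library 1 was the highest for all 3 genes.

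Of 20 transcription and splicing factors known from epithelial keratin expression, 19 were tested, 4 rose and 2 fell (7.23% and 7.43% of all tested genes). The AP-1 subunits JUN and FOSL1 rose by log2 fold changes of 2.15 and 2.30 (limma adjusted p = 1.83e-11 and 3.96e-11). TFAP2C, an AP-2 factor, and ESRP1, an epithelial splicing regulator, rose by 1.75 and 1.49. ESRP1 was scarce, with 21.3, 21.8 and 11.6 normalized counts in KYSE70 and 47.7, 43.1 and 65.1 in NRF2null-KYSE70. GRHL2, the member not tested, had means of 1.90 and 8.82. GRHL3 and EHF, factors of epithelial differentiation, had log2 fold changes of -1.20 and -1.14. TP63, whose product p63 maintains basal squamous cells, had 26829, 26896 and 25297 normalized counts in KYSE70 and 14222, 13826 and 13628 in NRF2null-KYSE70, a difference of -0.92 on the log2 scale that did not reach the fold threshold (limma adjusted p = 3.63e-09).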

How the data were processed

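RNA was sequenced from KYSE70 and NRF2null-KYSE70 (3 libraries each). The methods name a kit that does not mark strand, cutadapt (1.12), STAR (2.6.90c; hg38, RefSeq annotation) and featureCounts (1.5.1), with DESeq2 for normalization; multi-mapped reads and strand are not mentioned, and the table lists Ensembl identifiers. The deposited values are a signal, normalized counts per gene, each count having been divided by a size factor by the authors. In every library 100% of the values were whole multiples of the value of 1 read (tolerance 0.1 read), which gave the reads back. Columns name the cell line but no replicate, so libraries are numbered by their order in the table. Nothing in the labels says that replicates were separate cultures, so p-values measure the spread between these libraries. All columns of values were assigned to a line.

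Genes with a mean of at least 10 normalized counts were tested with limma (3.58.1 in R 4.3.3; trend) on log2(normalized count + 1), two-sided, with Benjamini-Hochberg adjustment over 15994 genes. limma replaced the study's DESeq2 because the deposited unit is normalized; DESeq2 (1.42.0) and edgeR (4.0.16) were run on the recovered reads. Single values were compared by exact permutation over libraries (scipy 1.17.1). Intervals of fold changes are limma 95% intervals, and the floor of 3 reads covers counting error only. Positions, exon lengths and coding lengths came from GENCODE v44 (hg38), which held 58472 of 58884 identifiers. The median of each chromosome arm was taken over its protein-coding genes with means of 50 or more. The fit was tested on simulated counts with the same small extra spread for every gene. That setting does not cover genes with uneven libraries, such as KRT7, KRT16 and KRT19. Keratins with a mean of at least 10 are all named, others by count or where they had over 3 reads or completed a pair or group. The members, lists, pairs and tests were chosen with earlier results of these data known. Alternatives were other pseudocounts, filters, scalings and tools, arm medians, other lengths, and each library left out.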

Additional observations from a re-analysis of the deposited data

How the results depend on the processing

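The count of 12 keratins past both thresholds was 9 to 14 under the other alternatives and 6 with a filter at a mean of 50 (5 higher, 1 lower), where 15 keratins were tested. DESeq2 and edgeR each called 11, beside 14.6% and 14.7% of all tested genes. Leaving out each library in turn gave 9 to 13 (7 to 9 higher, 2 to 4 lower), beside 13.9% to 14.6% of all tested genes. The fewest were without KYSE70 library 1, where KRT3 came under the filter and KRT19 and KRT23 were lost. KRT7 was lost by limma without the trend (adjusted p = 0.051), and KRT74 was called under total scaling (-1.05), which moved the median of all genes to -0.08. Direction reversed for KRT10 with TMM scaling (-0.0069), total scaling (-0.0698), the arm median subtracted (-0.0254) and libraries left out (-0.0869 to 0.0677), and for KRT18 (0.3372) and KRT6B (0.1062) with the arm median subtracted. The difference in the KRT5 to KRT15 ratio, 0.0003, ranged from -0.1432 to 0.0822 without single libraries, and that of KRT7 to KRT19, 0.98, from -1.212 to 3.3088 (-1.212 without KYSE70 library 3). The keratin share of reads and the other ratios kept their direction under every alternative run, with KRT6A to KRT16 at -0.04 without KYSE70 library 3. The cause of these differences was not tested. Coding lengths from a protein table were not used here and were replaced, after the data were seen, by those of the annotation. No paired analysis was possible because no replicate number is given in the column names. Genes with few reads carry wide intervals, and exact tests of 3 against 3 libraries cannot go below 0.1.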

Other observations

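Keratin-associated proteins, which embed the keratins of hair, were outside the gene rule. Of 112 such genes, 10 had a read and 3 were tested. KRTAP2-3 had 1.78, 0.907 and 5.27 normalized counts in KYSE70 and 42.6, 35.3 and 37.7 in NRF2null-KYSE70 (log2 fold change 3.62, SE 0.58, limma adjusted p = 0.000153). Its parental values were all under 10, so it passed the filter through the clone only and its selection favoured a difference. KRTAP3-1 had 5.34, 10.9 and 21.1 against 36.5, 42.2 and 40.0 (log2 fold change 1.77, SE 0.47, limma adjusted p = 0.00624). For both genes every library of the clone was above every parental library. Libraries of the lines did not overlap for 63.4% of all tested genes, and 7.23% of all tested genes rose past both thresholds. KRTAP4-1 had 25.8, 17.2 and 31.6 against 12.2, 22.6 and 22.8 and did not pass the test (limma adjusted p = 0.479). All 3 lie inside the chromosome 17 keratin cluster. They were chosen after their values were seen.

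Keratin pseudogenes numbered 147, of which 48 had a read and 7 were tested. None passed both thresholds. KRT8P3 had 329, 337 and 427 normalized counts in KYSE70 and 243, 183 and 193 in NRF2null-KYSE70 (log2 fold change -0.82, SE 0.15, limma adjusted p = 0.000553), beside -0.72 for KRT8 itself. KRT8P12, also processed from KRT8, had 294, 317 and 404 against 469, 407 and 333, which overlapped (limma adjusted p = 0.182).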
